A study of Mus musculus with 8 samples.

Results

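The cells described here were barcodes from a sort of mouse bone marrow T cells that held RNA of hematopoietic progenitors. A barcode was taken when it held at least 1 UMI (a counted RNA molecule) of Cd34, at least 1 of Kit, at most 1 in sum of Cd3d, Cd3e and Cd3g, and no T cell receptor contig, so members were selected on the measured UMIs of these genes, whose levels are not findings. The series had 55850 barcodes with 200 genes or more and no more than 15% of UMIs from mitochondrial genes, and 677 of these met the rule (1.21%), of which 345 came from RUNX1::RUNX1T1 pools and 332 from Control pools. They are called Cd34 Kit cells below.

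The RUNX1::RUNX1T1 group were Runx1 Runx1t1/+; Mx1-Cre mice, which carry a conditional knock-in of the fusion gene on 1 Runx1 allele and the Mx1-Cre transgene. The Control group were, per the study's methods, sex-matched littermates with the same conditional allele and without Mx1-Cre, and the labels call their genotype WT. All mice were C57BL/6 and were given Poly(I:C) at 5 mg/kg in 4 injections, and marrow was taken 4 weeks later, their age not being given in the sources used here. Mx1-Cre is driven by an interferon-responsive promoter and is active in many cell types, not in blood cells alone. Each group had 2 pools, each of the marrow of 2 mice, and each pool gave a 10x 5′ gene expression library and a T cell receptor library. T cells were enriched by removal of other cells and then sorted as DAPI-, mCherry- and CD3+. mCherry marks expression of the fusion in this model, so cells with detectable reporter had been gated away. Since the pool is the replicate, tests on shares compared 2 values with 2, and the smallest two-sided p that an exact permutation test can give is 0.333.

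CD34 is a surface sialomucin and KIT the receptor for stem cell factor. Together they mark progenitor cells of the marrow, which lose both on the way to most mature blood lineages. Mast cells keep KIT and depend on it. Early progenitors transcribe genes of several lineages at low level before they commit, and RUNX1 is a transcription factor that these cells need. RUNX1::RUNX1T1 joins the DNA-binding domain of RUNX1 to RUNX1T1 (also called ETO), a corepressor, and is found in acute myeloid leukemia.

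The libraries held between 90958101 and 102883449 UMIs in 13633 to 14664 barcodes. The median Cd34 Kit cell held 11202 and 11051.5 UMIs in RUNX1::RUNX1T1 pools 1 and 2, and 13748.5 and 14818 in Control pools 1 and 2, against 6363.5 to 6594 in barcodes with a T cell receptor contig, which stand here for T cells. Because the Control members were deeper, shares of cells with a UMI are given as counted and with each cell thinned to 2000 UMIs, which left out 21 shallower members (8 and 8 of the RUNX1::RUNX1T1 pools, 0 and 5 of the Control pools). Between 256 and 306 barcode sequences occurred in both libraries of a pair, and 0 were members in both. Doublets were scored with Scrublet, and no member lay among the top 5% of scores of its library. Intervals and floors below cover counting error only.

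Cells near the edges of the rule were not rare. Of the 677 members, 68 had 1 Cd34 UMI, 152 had 1 Kit UMI, 14 had 1 of each, and 101 had 1 UMI of the Cd3 genes. Just outside, 24 barcodes with Cd34, Kit and no contig held 2 Cd3 UMIs. A further 164 barcodes held Kit without Cd34 and 227 held Cd34 without Kit. Barcodes with Cd34, Kit and a contig numbered 166, and each of them held at least 2 Cd3 UMIs.

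The label was checked on genes that the rule did not use. The following is a description with no test, because the rule set these cells apart from T cells. The 20 genes with the largest ratio of CPM (UMIs scaled to a total of 1e6) in Cd34 Kit cells to CPM in contig barcodes, among 1529 genes at 100 CPM or more, ran from Cma1 at 147 times to Prtn3 at 72.5 times. They included stem and multipotent progenitor genes, with Lmo2 at 94.95 times, Angpt1 at 89.1 times, Erg at 84.3 times and Flt3 at 82.4 times. Granule genes of early myeloid cells stood beside them, with Mpo (myeloperoxidase) at 92.9 times and Ctsg (cathepsin G) at 83.7 times, as did Cpa3 (carboxypeptidase A3, a mast cell granule protease) at 88.6 times and Gata2, a transcription factor of stem and mast cells, at 82.9 times. Of the 15 genes of the stem and multipotent progenitor list, the median member held 7 in both RUNX1::RUNX1T1 pools and 8 in both Control pools. The T cell list of 15 genes summed to 280 and 274 CPM in the RUNX1::RUNX1T1 pools and to 153 and 151 CPM in the Control pools, against 4099 to 5377 CPM in contig barcodes. Of the sums in members, Lat alone, which is not particular to T cells, held 232 and 233 CPM against 51.7 and 88.5 CPM. Cd79a, a B cell receptor chain, and Epx, the eosinophil peroxidase, held 0 UMIs in each pool. The name progenitor held on these genes, but of its 5 given markers Cpa3 and Runx1t1 were found mostly in members of the RUNX1::RUNX1T1 group.

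The promoters of 3 mast cell genes that were higher in the RUNX1::RUNX1T1 members are shown as a description. The 250 bases before the start of each gene are from RefSeq (GRCm38.p6), printed 5′ to 3′ on the strand of the gene, which is the minus strand for all 3. They lie at chr3:20242182-20242431 for Cpa3, chr19:11623720-11623969 for Ms4a2 and chr1:173227230-173227479 for Fcer1a. Capitals mark the RUNX core (TGTGGT, or ACCACA on the other strand) and the GATA site (AGATAA, or TTATCT on the other strand), which do not overlap here.
Cpa3: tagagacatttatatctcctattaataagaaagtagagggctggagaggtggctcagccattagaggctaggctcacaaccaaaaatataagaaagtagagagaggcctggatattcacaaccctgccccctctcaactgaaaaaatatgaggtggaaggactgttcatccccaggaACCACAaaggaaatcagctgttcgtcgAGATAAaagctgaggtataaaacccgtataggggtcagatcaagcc
Ms4a2: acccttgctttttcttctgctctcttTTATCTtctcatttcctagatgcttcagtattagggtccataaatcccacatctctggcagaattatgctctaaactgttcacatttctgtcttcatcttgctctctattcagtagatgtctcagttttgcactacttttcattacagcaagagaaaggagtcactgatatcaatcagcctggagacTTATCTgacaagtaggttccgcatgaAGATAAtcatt
Fcer1a: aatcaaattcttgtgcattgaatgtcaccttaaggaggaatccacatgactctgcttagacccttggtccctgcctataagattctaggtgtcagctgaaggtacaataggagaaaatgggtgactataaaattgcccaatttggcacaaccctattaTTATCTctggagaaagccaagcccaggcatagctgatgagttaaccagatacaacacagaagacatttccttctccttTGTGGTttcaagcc

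In these windows the Cpa3 promoter held a RUNX core 73 bases and a GATA site 46 bases before the start. The Fcer1a promoter held a RUNX core at 14 and a GATA site at 92 bases. The Ms4a2 promoter held GATA sites at 11, 37 and 224 bases and no RUNX core. Over 32851 windows of the same length, 14.0% held the RUNX core and 9.99% the GATA site on either strand. Of the 10 genes of the mast cell and basophil list that were higher in the RUNX1::RUNX1T1 group, 5 held the RUNX core (Cpa3, Fcer1a, Mcpt8, Il1rl1 and Srgn) and 5 the GATA site (Cpa3, Ms4a2, Fcer1a, Il1rl1 and Slc18a2). Cma1, Gata2 and Hdc held neither. Another 4 motifs were searched. CAGGTG, an E-box, was in 17.2% of windows and in 1 of the 10. GGAAGT, an ETS core, was in 19.7% and in 2 of the 10. CACGTG, another E-box, was in 6.02% and TGACTCA, an AP-1 site, in 4.46%, and both were in 0 of the 10. The percentages are of single windows, while a gene was counted if any of its windows held the motif. The counts and percentages are therefore not like for like. These matches describe letters in a window and are not sites of measured binding. The 10 genes were chosen by their difference in these data, and whether the fusion acts on them was not tested.

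Runx1t1 is the gene whose sequence the knock-in adds and is the check of the labels. It lies at chr4:13743436-13893649 on the plus strand (GRCm38, gene annotation GENCODE M21, as for all gene positions here). A Runx1t1 UMI was found in 35 of 185 and 24 of 160 members of RUNX1::RUNX1T1 pools 1 and 2, and in 1 of 38 and 5 of 294 members of Control pools 1 and 2. These were shares of 18.9% and 15% against 2.63% and 1.70%, so the groups did not overlap, and the mean difference was 14.8 percentage points (two-sided exact permutation p = 0.333). Thinned, the shares were 3.95% and 5.92% against 0% and 0%. In contig barcodes the shares were 0.411% and 0.541% against 0.127% and 0.254%. Summed over members, Runx1t1 had 41 and 30 UMIs in the RUNX1::RUNX1T1 pools and 1 and 5 in the Control pools, and it was 4.09 higher on the log2 scale (SE 0.51, adjusted p = 4.7e-06). Here and below, adjusted p is from edgeR's quasi-likelihood test on UMI counts summed per pool, with Benjamini-Hochberg adjustment over all 10024 genes tested, and n is 2 pools in each group.

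Runx1 (chr16:92601466-92826149, minus strand) was also higher in the RUNX1::RUNX1T1 members, at 329 and 392 CPM against 161 and 141 CPM, a log2 difference of 1.41 (SE 0.17, edgeR adjusted p = 1.9e-06). A 5′ library reads transcripts near their start, and gene counts do not show how UMIs of a fusion transcript fell between Runx1, Runx1t1 and neither, so the levels of the fusion and of Runx1 cannot be told apart. The matrices hold no feature for mCherry. Of the 7 genes of the RUNX and ETO family list, all 7 were tested, 2 were higher (Runx1 and Runx1t1) and 1 was lower, Runx3, the family member of cytotoxic T cells, at 66.98 and 85.7 CPM against 142 and 123 CPM. Runx3 lost its call with DESeq2's Wald test (adjusted p = 0.12) and without RUNX1::RUNX1T1 pool 1 (edgeR adjusted p = 0.20). Over all genes tested, 11.8% were higher and 12.3% lower. The median log2 difference of the list was 0.03, against 0.003 over all genes tested.

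Within the RUNX1::RUNX1T1 group, 59 members held a Runx1t1 UMI and 286 did not. The following is a description, since the cells with the UMI were deeper, with a median of 13060 against 10766 UMIs. Cpa3 had 9409 CPM in cells with the UMI and 6911 CPM in cells without it, so Cpa3 was high in both. Il1rl1, the receptor of interleukin-33, had 152 against 72.3 CPM, Flt3, a cytokine receptor of multipotent and lymphoid progenitors, 45.4 against 75.3 CPM, and Mpo 1140 against 1233 CPM.

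Cd34 Kit cells were not clearly more or less frequent in either group. They made up 1.27% (185 of 14554, 95% Wilson interval 1.10 to 1.47) and 1.18% (160 of 13583, 1.01 to 1.37) of barcodes in the RUNX1::RUNX1T1 pools, and 0.282% (38 of 13481, 0.205 to 0.387) and 2.07% (294 of 14232, 1.84 to 2.31) in the Control pools. The RUNX1::RUNX1T1 pools lay between the Control pools, and the mean difference was 0.0507 percentage points (two-sided exact permutation p = 1). Without Control pool 1 it was -0.841 points and without Control pool 2 it was 0.943 points, so its sign rests on which Control pool is used. These are shares of sorted cells after T cell enrichment and say nothing of how frequent such cells are in marrow.

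Among the Cd34 Kit cells, Cpa3 was nearly confined to the RUNX1::RUNX1T1 group. It lies at chr3:20215620-20242181 on the minus strand. A Cpa3 UMI was found in 182 of 185 members (98.4%) and 157 of 160 members (98.1%) of the RUNX1::RUNX1T1 pools, and in 3 of 38 (7.89%) and 31 of 294 (10.5%) of the Control pools. The gene was thus detected in nearly every RUNX1::RUNX1T1 member and in few Control members. The difference of the mean shares was 89.0 percentage points (two-sided exact permutation p = 0.333, the smallest possible). Thinned to 2000 UMIs the shares were 98.3% and 98.0% against 2.63% and 2.08%. In contig barcodes, at median depths of 6363.5 to 6594 UMIs, the shares were 11.1% and 13.4% in the RUNX1::RUNX1T1 pools and 0.0780% and 0.145% in the Control pools.

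**Figure D1:**
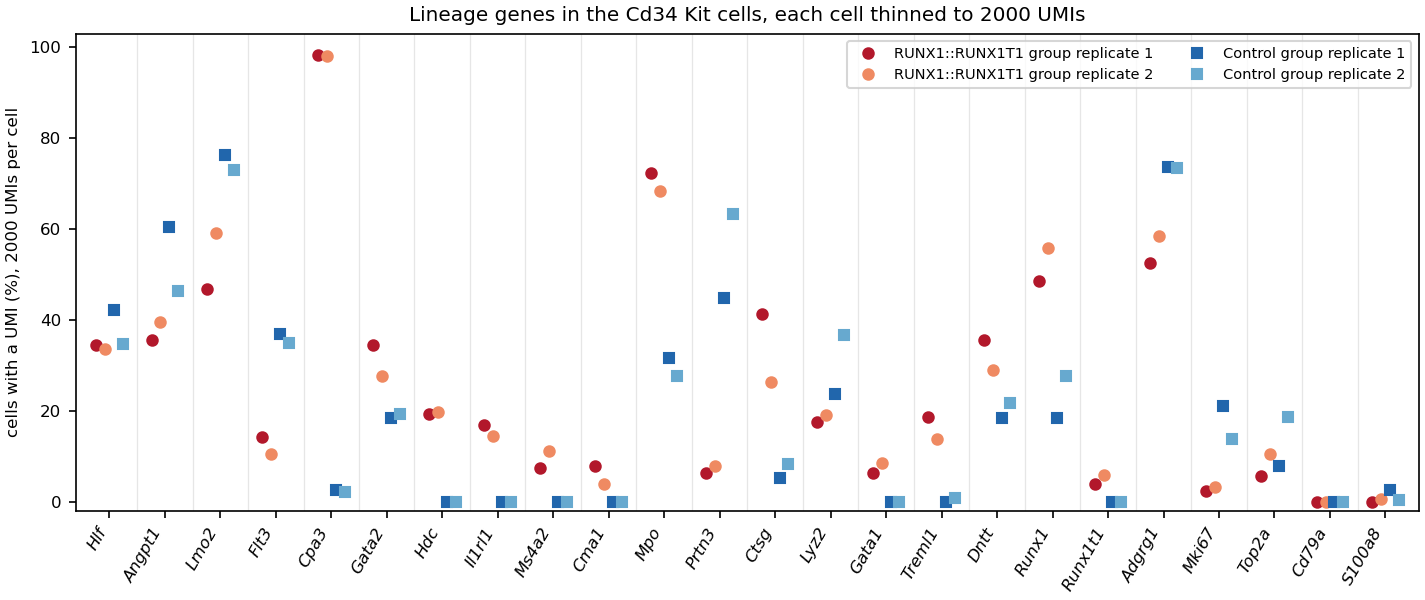
Share of Cd34 Kit cells with at least 1 UMI of each gene, in percent, after each cell was thinned to 2000 UMIs, with 1 point for each pool (circles for the RUNX1::RUNX1T1 group, squares for the Control group). Cpa3 stands at 98.3% and 98.0% in the RUNX1::RUNX1T1 pools and at 2.63% and 2.08% in the Control pools, while Prtn3, Flt3 and Adgrg1 stand higher in the Control pools.

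Counted as UMIs, Cpa3 had 15405 and 12414 in the RUNX1::RUNX1T1 members and 4 and 45 in the Control members. As levels these were 7587 and 7234 CPM against 7.38 and 9.501 CPM, a log2 difference of 9.77 (SE 0.29, edgeR adjusted p = 9.6e-15). Among all 10024 genes tested, 2419 passed the threshold of 0.05 (24.1%), of which 1183 were higher (11.8%) and 1236 lower (12.3%), and the pools of the groups did not overlap for 59.3% of genes. Members held 58.6% and 53.8% of all Cpa3 UMIs of their libraries in the RUNX1::RUNX1T1 pools, from 1.27% and 1.18% of the barcodes. In the same pools, 64 and 53 barcodes with Kit and without Cd34 held 1972 and 773 Cpa3 UMIs. The 43 and 44 barcodes with Cd34 and without Kit held 1365 and 1529, and contig barcodes held 4976 and 5560. Cpa3 was thus not particular to the members within these libraries.

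**Figure D2:**
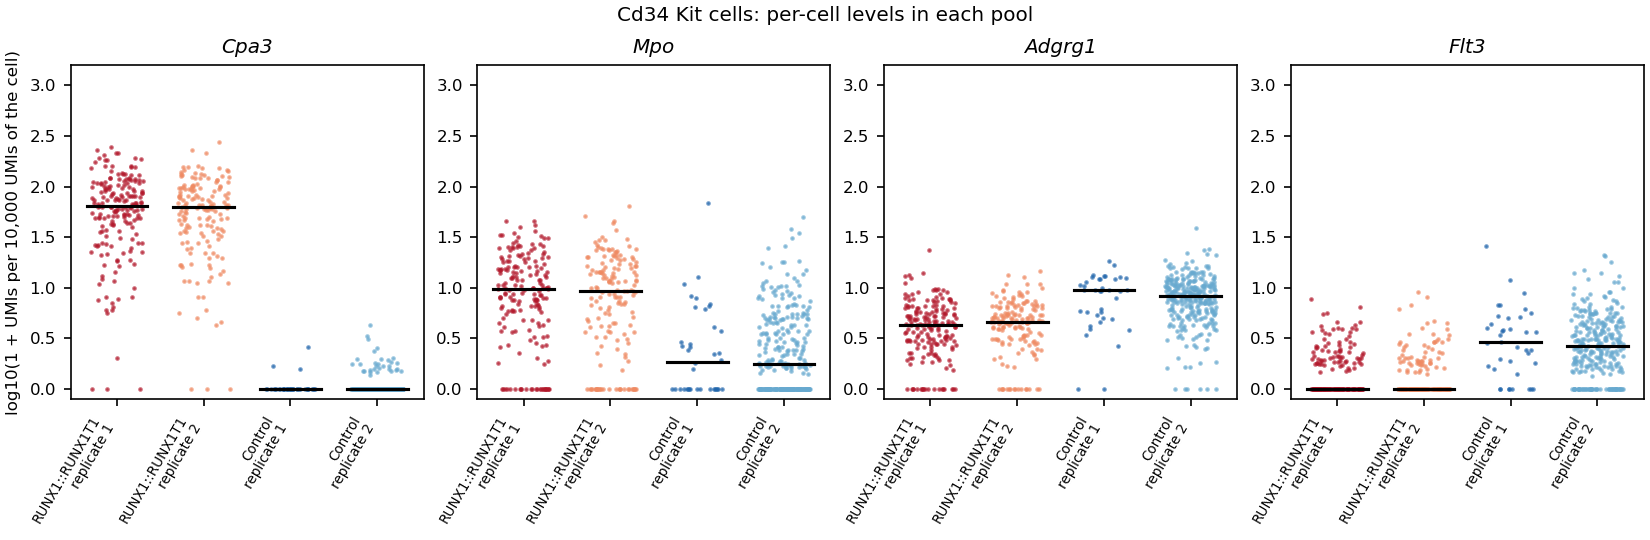
Levels of Cpa3, Mpo, Adgrg1 and Flt3 in each Cd34 Kit cell, as log10 of 1 plus the UMIs of the gene scaled to a fixed total per cell, with 1 point for a cell, pools side by side and the median as a bar. Cpa3 is high across the cells of both RUNX1::RUNX1T1 pools and at 0 in most cells of the Control pools, Adgrg1 is present in all 4 pools with higher medians in the Control pools, and the median of Flt3 is at 0 in the RUNX1::RUNX1T1 pools.

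Of the 16 genes of the mast cell and basophil list, 11 passed the filter on low counts. Of these, 10 were higher in the RUNX1::RUNX1T1 group and 1 was lower, against 11.8% and 12.3% of all genes tested, and the median log2 difference of the 11 was 7.35. With genes at 0 in the Control group set to their bound, the median was 5.64, and over all genes tested it was 0.003. The filter kept genes that were high in 1 group alone, so the 11 are not the whole list. The list summed to 14236 and 14207 CPM in RUNX1::RUNX1T1 members and to 2029 and 2264 CPM in Control members.

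The IgE receptor genes were found in a minority of cells. Ms4a2, its beta chain, had 79 and 149 UMIs in the RUNX1::RUNX1T1 pools and 0 and 0 in the Control pools, which puts it at least 107-fold higher (floor of 3 counts over the group). Cells with a Ms4a2 UMI were 14.6% and 28.1% of RUNX1::RUNX1T1 members. Fcer1a, the alpha chain, had 53 and 53 UMIs against 0 and 0, at least 49.8-fold higher, in 5.95% and 10.0% of members. Contig barcodes held Ms4a2 in 0.157% and 0.320% and Fcer1a in 0.105% and 0.0401% in the RUNX1::RUNX1T1 pools. In the Control pools, 0 of 38 and 0 of 294 cells with a UMI allow shares of up to 7.89% and 1.02% of cells with a UMI (3 counts of the cells), which does not limit how many cells express these genes.

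Other genes of mast cell function were higher as well. Hdc, which makes histamine, had 307 and 276 UMIs against 3 and 2, a log2 difference of 7.35 (SE 0.37, edgeR adjusted p = 2.4e-11). Il1rl1 had 209 and 123 UMIs against 0 and 0, at least 156-fold higher, and was found in 38.9% and 33.8% of RUNX1::RUNX1T1 members and in 3.36% and 2.01% of their contig barcodes. Both genes were thus found in a minority of the cells, where Cpa3 was in nearly all. Slc18a2, the vesicular monoamine transporter, had 171 and 168 CPM against 31.4 and 29.1 CPM, and Gata2 had 224 and 239 CPM against 77.5 and 90.4 CPM, so both were also present in the Control members. Srgn, the core protein of granule proteoglycan, was detected in 89.5% to 98.4% of members of every pool and stood at 5233 and 5949 CPM against 1542 and 1836 CPM.

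Chymase was a matter of few cells. Cma1, mast cell chymase, had 1284 and 419 UMIs in the RUNX1::RUNX1T1 pools and 0 in both Control pools, at least 799.7-fold higher. These UMIs came from 20 and 13 cells, and the 5 cells with the most held 1167 and 402 of them. Outside the members of the RUNX1::RUNX1T1 pools, barcodes with Kit and without Cd34 held 488 and 40 Cma1 UMIs. Barcodes with Cd34 and without Kit held 6 and 5, and contig barcodes held 68 and 315. Mcpt8, a basophil protease, had 86 and 12 UMIs against 0 and 17, with a log2 difference of 3.12 (SE 0.65, edgeR adjusted p = 0.0011). As levels these were 42.4 and 6.99 CPM against 0 and 3.59 CPM, so the pools did not overlap, but without RUNX1::RUNX1T1 pool 1 the difference was 1.31 (edgeR adjusted p = 0.44). The tryptase genes Tpsb2 and Tpsab1 had 0 UMIs in members of every pool, and Prss34 had 1 UMI in all. Hpgds, a prostaglandin D synthase, had 0 and 1 UMIs against 0 and 37. Of the protease genes on this list, the RUNX1::RUNX1T1 members therefore held Cpa3, Mcpt8 and, in few cells, Cma1, while Tpsb2 and Tpsab1 were not detected.

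Ccl3, a chemokine that many myeloid cells make, was the member of the list that was lower. It had 53 and 17 UMIs in the RUNX1::RUNX1T1 pools and 198 and 1362 in the Control pools, a log2 difference of -3.96 (SE 0.26, edgeR adjusted p = 8.2e-10), and 52 of the 53 were in 1 cell. Shares of cells with a Ccl3 UMI were 1.08% and 2.5% against 34.2% and 42.2%. Contig barcodes held Ccl3 in 15.1% and 31.0% in the RUNX1::RUNX1T1 pools and in 11.8% and 11.5% in the Control pools, so the RUNX1::RUNX1T1 members lay below the T cells of their own libraries.

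By a rule of fold among genes past the threshold whose pools did not overlap, 10 higher and 10 lower genes were chosen. The higher genes included, beside Cma1, Il1rl1, Ms4a2, Cpa3 and Fcer1a, the genes Adamts9, Slc45a3, Igf1 and Cd200r4. Slc45a3, a solute carrier, had 380 and 452 UMIs against 0 and 1, a ratio of 1172 (counting interval 210 to 46352), in 108 and 92 cells. Slc45a3 was thus found in most RUNX1::RUNX1T1 members and in 1 Control member. Adamts9, a secreted metalloprotease, was at least 108-fold higher, Igf1, a growth factor, at least 41.3-fold and Cd200r4, a receptor of the Cd200r family, at least 30.1-fold.

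**Figure D3:**
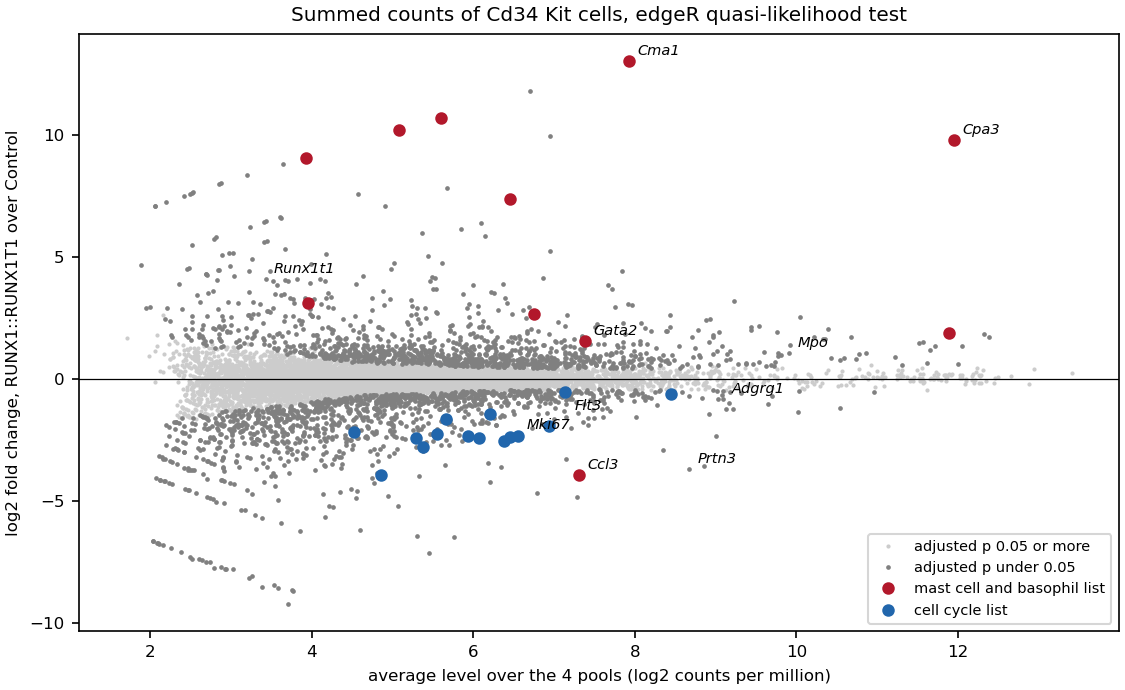
Log2 difference of RUNX1::RUNX1T1 against Control in Cd34 Kit cells against mean level, for the genes tested other than those of the rule. Called genes (edgeR adjusted p under 0.05) are in dark grey, and the mast cell and basophil list and the cell cycle list are in color. Genes with no UMI in a group sit at their fitted value, which is no bound, and Cpa3 stands out at a log2 difference of 9.77 and high level.

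All 10 genes named as lower were at 0 UMIs in both RUNX1::RUNX1T1 pools, so their folds are bounds. 1500009L16Rik was at least 31.9-fold lower, Tbxa2r, the thromboxane receptor, at least 31.7-fold, Bex1 at least 26.0-fold, Tfec, a transcription factor, at least 25.6-fold, Slpi, a protease inhibitor of neutrophils, at least 21.1-fold, Tmem121 at least 20.8-fold, Clec12a, a lectin of myeloid cells, at least 20.3-fold, Lmo1 at least 19.4-fold, Gm35551 at least 17.3-fold and Mycn, a transcription factor of the Myc family, at least 15.1-fold. For Slpi, 50 of the 57 UMIs of Control pool 1 were in 1 cell.

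Genes that were most alike to Cpa3 over the 677 cells, by Pearson r of log CPM, were Fam189b at 0.72, Cst7, a cystatin of granules, at 0.69 and Slc7a8, an amino acid transporter, at 0.68. These values describe cells that share 4 libraries and differ in group, and within groups other genes came first. In the 345 RUNX1::RUNX1T1 members these were Rps27a at 0.65 and Rpl30 at 0.64, which encode ribosomal proteins, and in the 332 Control members Clec4e at 0.28.

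Neutrophil and monocyte progenitor genes moved in both directions. Of 15 genes, 13 were tested, and 3 were higher (Calr, Cst7 and Mpo), against 11.8% of all genes tested. A further 7 were lower (Cebpa, Csf1r, Irf8, Ly6c2, Lyz2, Nkg7 and Prtn3), against 12.3%, and 3 did not pass. The median log2 difference was -1.01. Calr lost its call when RUNX1::RUNX1T1 pool 1, RUNX1::RUNX1T1 pool 2 or Control pool 1 was left out. Mpo (chr11:87793581-87804413, plus strand) was detected in 86.5% and 82.5% of RUNX1::RUNX1T1 members and in 55.3% and 58.8% of Control members, a difference of 27.4 percentage points (two-sided exact permutation p = 0.333). Thinned, the shares were 72.3% and 68.4% against 31.6% and 27.7%, and in contig barcodes they were 1.13% to 1.98%. As a level, Mpo had 1210 and 1220 CPM against 891 and 455 CPM, a log2 difference of 1.04 (SE 0.22, edgeR adjusted p = 0.0013). In Control pool 1, 327 of the 483 Mpo UMIs were in 1 cell. That difference was 1.51 without Control pool 1 and 0.64 without Control pool 2, and DESeq2's Wald test gave an adjusted p of 0.124.

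Of the serine protease genes that accompany Mpo in granules, Prtn3 was lower, while Ctsg leaned the same way as Mpo without passing. Prtn3, proteinase 3, was found in 32.4% and 33.1% of RUNX1::RUNX1T1 members and in 76.3% and 91.8% of Control members, against 0.359% to 2.37% of contig barcodes. Its levels were 51.2 and 61.2 CPM against 1031 and 623 CPM, a log2 difference of -3.71 (SE 0.22, edgeR adjusted p = 2.7e-10). Mpo and Prtn3 thus differed between the groups in opposite directions. In Control pool 1, 342 of the 559 Prtn3 UMIs and 155 of the 177 Ctsg UMIs were in 1 cell. Ctsg had 434 and 196 CPM against 327 and 152 CPM, with overlapping pools and a log2 difference of 0.66 that did not pass (edgeR adjusted p = 0.13).

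Elane, neutrophil elastase, was too low to test. It had 0 and 0 UMIs in the RUNX1::RUNX1T1 pools and 447 and 4 in the Control pools, and 446 of the 447 were in 1 cell. Likewise 442 of the 444 Ly6c2 UMIs of Control pool 1 were in 1 cell, and the log2 difference of Ly6c2, a monocyte surface gene, was -4.86 with that pool and -0.86 without it. Lyz2, lysozyme, had 110 and 139 CPM against 299 and 259 CPM, a log2 difference of -1.01 (SE 0.16, edgeR adjusted p = 7.3e-05). Genes of later neutrophils were near 0, and the list of 9 summed to between 2.33 and 16.7 CPM.

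Stem and multipotent progenitor genes were present in both groups, and the list split. All 15 were tested, and 6 were higher (Erg, Fgd5, Ly6a, Procr, Slamf1 and Tal1), against 11.8% of all genes tested. A further 5 were lower (Flt3, Hoxa9, Lmo2, Mecom and Mycn), against 12.3%. The other 4 did not pass, among them Angpt1, Hlf and Meis1. The median log2 difference was 0.29. Hlf (chr11:90336536-90390895, minus strand), a transcription factor of hematopoietic stem cells, was detected in 77.8% and 74.4% of RUNX1::RUNX1T1 members and in 71.1% and 79.6% of Control members, against 0.946% to 2.73% of contig barcodes. Its levels were 220 and 227 CPM against 203 and 197 CPM, a log2 difference of 0.30 (SE 0.15, edgeR adjusted p = 0.17). Angpt1, a ligand that stem cells secrete, had 226 and 223 CPM against 327 and 276 CPM and did not pass (edgeR adjusted p = 0.26).

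Flt3 and Hoxa9 were the clearest of the lower genes. Flt3 had 74.9 and 62.4 CPM against 223 and 222 CPM, a log2 difference of -1.55 (SE 0.17, edgeR adjusted p = 6.4e-07), and shares of cells with a UMI were 42.2% and 39.4% against 78.9% and 81.0%, with 0.260% to 1.39% in contig barcodes. Hoxa9 (chr6:52223100-52231089, minus strand), a homeobox gene active in stem cells and many leukemias, had 17.7 and 18.1 CPM against 72.0 and 108 CPM, a log2 difference of -2.30 (SE 0.23, edgeR adjusted p = 3.4e-07). Mecom, a zinc finger factor of stem cells, was found in 5 and 3 RUNX1::RUNX1T1 members and in 11 and 70 Control members.

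Among the higher genes, Tal1, a transcription factor of stem and erythroid cells, had 51.2 and 69.9 CPM against 20.3 and 23.4 CPM, a log2 difference of 1.51 (SE 0.23, edgeR adjusted p = 4.0e-05). Procr, a surface receptor used to purify stem cells, had 66.0 and 86.2 CPM against 36.9 and 46.5 CPM, a log2 difference of 0.90 (SE 0.19, edgeR adjusted p = 0.0016). Slamf1 had 20 and 34 UMIs against 2 and 11, and it did not pass without Control pool 2 or without RUNX1::RUNX1T1 pool 2. Ly6a, which encodes Sca-1, had 295 and 270 CPM against 83.0 and 217 CPM, a log2 difference of 0.90 (SE 0.26, edgeR adjusted p = 0.013), which was 1.96 without Control pool 2 and 0.48 without Control pool 1. Ly6a is also an interferon-induced gene and was found in 29.0% to 40.3% of contig barcodes.

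Single cells held genes of several lineages together. Cpa3 and Hlf were both found in 77.3% and 73.8% of RUNX1::RUNX1T1 members, against 5.26% and 8.50% of Control members. Cpa3, Mpo and Dntt, the terminal transferase of early lymphoid cells, were found together in 64.9% and 48.1% against 2.63% and 2.04%. Mpo and Dntt, without regard to Cpa3, were found together in 64.9% and 48.1% against 23.7% and 31.3%, so every RUNX1::RUNX1T1 member with Mpo and Dntt also held Cpa3. These shares follow from those of Cpa3 and are a description. Free RNA in the droplets can add UMIs to such counts, and the contig barcodes of the RUNX1::RUNX1T1 pools held Cpa3 in 11.1% and 13.4%.

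Erythroid, megakaryocyte and mast cell lineages share the regulators Gata1 and Gata2. Of 15 erythroid genes, 5 were tested. Of these, 3 were higher (Blvrb, Gata1 and Hbb-bt) and 1 was lower (Tfrc), against 11.8% and 12.3% of all genes tested. Gata1, the master regulator of red cells, megakaryocytes and mast cells, had 68 and 93 UMIs against 2 and 11, a log2 difference of 4.21 (SE 0.36, edgeR adjusted p = 3.9e-08), in 19.5% and 25.6% of cells against 2.63% and 1.36%, and in 0.253% to 0.551% of contig barcodes. Hbb-bt, a beta globin, had 145 and 255 UMIs against 12 and 134, a log2 difference of 2.12 (SE 0.26, edgeR adjusted p = 4.5e-06), with 117 of the 255 in 1 cell. Blvrb, a biliverdin reductase, had 80.3 and 76.9 CPM against 25.8 and 28.7 CPM, while Hba-a1 and Klf1 had 0 to 1 and 0 to 10 UMIs in a pool and were not tested. Tfrc, the transferrin receptor, did not pass without RUNX1::RUNX1T1 pool 1 (edgeR adjusted p = 0.18) or with DESeq2's Wald test (adjusted p = 0.12). Gata1 and Spi1, regulators of opposing lineages, were found together in 9.73% and 19.4% of RUNX1::RUNX1T1 members and in 2.63% and 1.36% of Control members.

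Of 10 megakaryocyte genes, 6 were tested. Of these, 3 were higher (Gp5, Itga2b and Treml1) and 2 were lower (Gp9 and Pf4), against 11.8% and 12.3% of all genes tested. Treml1, a platelet granule receptor, had 162 and 125 UMIs against 1 and 12, a log2 difference of 5.04 (SE 0.31, edgeR adjusted p = 3.4e-10). Pf4, platelet factor 4, had 5 and 7 UMIs against 4 and 146, of which 119 were in 1 cell, and its log2 difference of -2.84 was -0.99 without Control pool 2 (edgeR adjusted p = 0.62). The list therefore did not move as 1 group.

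Genes of lymphoid progenitors were lower or did not pass, while some genes of the T cell and NK lists were higher. Of 10 lymphoid progenitor genes, 5 were tested, 0 were higher and 3 were lower (Ighm, Lax1 and Notch1). Over all genes tested, 11.8% were higher and 12.3% lower, the background for each list in this paragraph. Ighm, the heavy chain of IgM, had 1.97 and 7.58 CPM against 107 and 66.7 CPM, a log2 difference of -3.97 (SE 0.36, edgeR adjusted p = 7.7e-08). Dntt had 353 and 249 CPM against 188 and 329 CPM, so its pools overlapped, and it did not pass (edgeR adjusted p = 0.39). Of 15 T cell genes, 6 were tested, and Lat, an adaptor that mast cells and platelets also use, was higher at 232 and 233 CPM against 51.7 and 88.5 CPM, while Lck and Thy1 were lower. Lck, Thy1 and Notch1 lost their calls with DESeq2's Wald test (adjusted p = 0.066, 0.23 and 0.19) and without Control pool 2 (edgeR adjusted p = 0.15, 0.13 and 0.28), and Thy1 also without RUNX1::RUNX1T1 pool 1 (edgeR adjusted p = 0.21). Of 15 genes of NK and innate lymphoid cells, 4 were tested and Gata3 and Id2 were higher. Gata3, at a log2 difference of 0.84, lost its call with DESeq2's Wald test (adjusted p = 0.46) and without RUNX1::RUNX1T1 pool 1, RUNX1::RUNX1T1 pool 2 or Control pool 2 (edgeR adjusted p = 0.24, 0.15 and 0.29). Of 12 dendritic cell and MHC class II genes, 9 were tested and 2 were lower (Flt3 and Irf8). Of the B cell list 1 gene was tested and did not pass, and of the mature neutrophil, eosinophil and stromal lists 0 genes were tested.

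**Figure D4:**
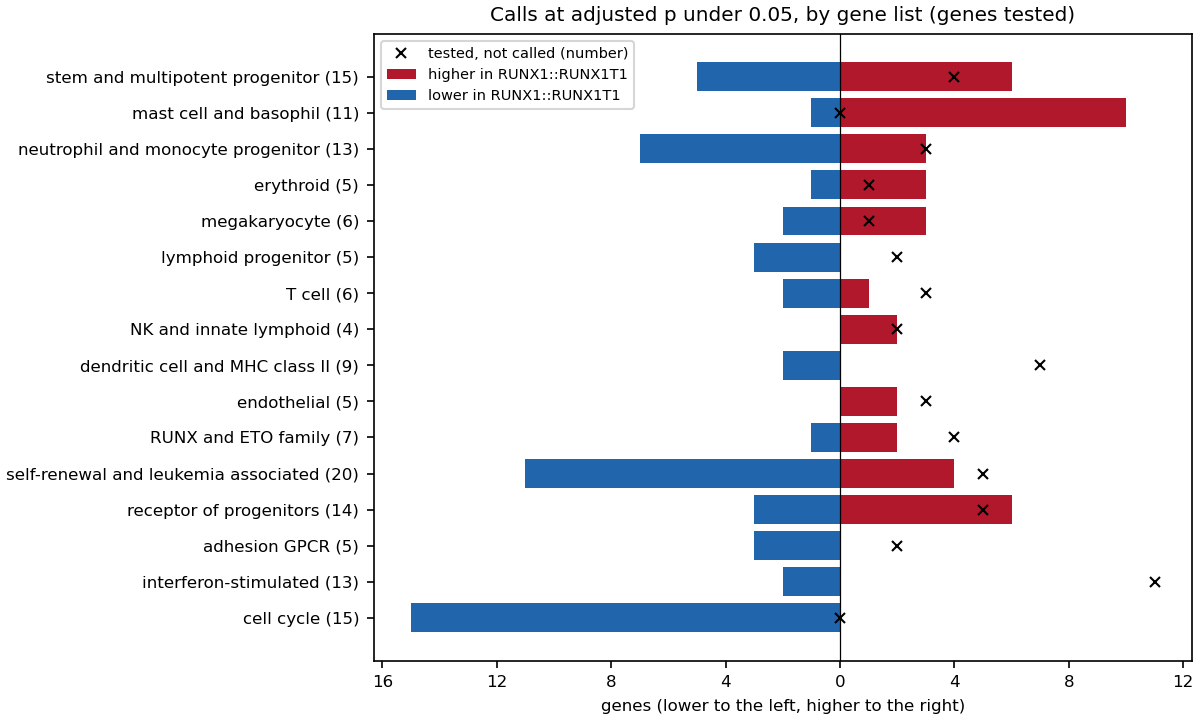
Number of genes called higher, called lower and not called in Cd34 Kit cells, for each list with 4 or more genes tested. Bars to the right count higher genes, bars to the left lower genes, and crosses give the number not called. The mast cell and basophil list has 10 of 11 higher and the cell cycle list 15 of 15 lower.

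Adgrg1, an adhesion G protein-coupled receptor present on stem cells and on cytotoxic lymphocytes, lies at chr8:94974751-95014217 on the plus strand. An Adgrg1 UMI was found in 166 of 185 (89.7%) and 144 of 160 (90.0%) RUNX1::RUNX1T1 members, and in 36 of 38 (94.7%) and 288 of 294 (98.0%) Control members. The mean difference was -6.48 percentage points (two-sided exact permutation p = 0.333), and it was 0.901 points among members with 500 genes or more and mitochondrial UMIs of 5% or less, so the share as counted changed sign with that filter. Thinned, the shares were 52.5% and 58.6% against 73.7% and 73.4%, a difference of -18.0 points. In contig barcodes they were 4.11% and 17.7% against 1.03% and 2.26%.

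As a level, Adgrg1 was lower in the RUNX1::RUNX1T1 members, at 359 and 383 CPM against 753 and 718 CPM. The log2 difference was -0.84 (SE 0.17, edgeR adjusted p = 0.00076), and it passed in every alternative fit, between -0.96 and -0.82. The gene was thus present in most members of all pools and lower, not absent, in the RUNX1::RUNX1T1 group. Of 8 adhesion G protein-coupled receptor genes, 5 were tested. Of these, 0 were higher and 3 were lower (Adgra3, Adgrg1 and Adgrl4), against 11.8% and 12.3% of all genes tested. Adgra3 did not pass without RUNX1::RUNX1T1 pool 1 or Control pool 1 (edgeR adjusted p = 0.21 and 0.066). Adgrl4, known from endothelium, had 162 and 146 CPM against 360 and 270 CPM, a log2 difference of -0.85 (SE 0.17, edgeR adjusted p = 0.00061). Adgrg3 had 173 and 151 CPM against 161 and 130 CPM and did not pass (edgeR adjusted p = 0.14). Most alike to Adgrg1 over the 677 cells was Aldh2, an aldehyde dehydrogenase of stem cells, at r = 0.42, followed by Rpl31 and Rpl7a, which encode ribosomal proteins, at 0.40 each. Other genes came first within the groups, H2-T23 at 0.52 in the RUNX1::RUNX1T1 members and Rbpms at 0.36 in the Control members.

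The self-renewal and leukemia associated list, which holds Adgrg1, Hoxa9, Mecom, Lmo2 and Mycn as well, had 20 of 20 genes tested. Of these, 4 were higher (Cd47, Erg, Gfi1 and Myb) and 11 lower, against 11.8% and 12.3% of all genes tested. The other 5 did not pass, and the median log2 difference was -0.74. Myc, a driver of growth, had 110 and 121 CPM against 308 and 285 CPM, a log2 difference of -1.21 (SE 0.16, edgeR adjusted p = 6.0e-06). Myb had 374 and 470 CPM against 299 and 256 CPM, a log2 difference of 0.76 (SE 0.17, edgeR adjusted p = 0.0020). Of the higher genes, Myb, Cd47 and Erg lost their calls without RUNX1::RUNX1T1 pool 2.

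Of the receptors of progenitors, 14 of 18 genes were tested. Of these, 6 were higher (Cd48, Cd53, Cd63, Csf2rb, Il1rl1 and Il3ra) and 3 were lower (Csf1r, Flt3 and Il6ra). Over all genes tested, 11.8% were higher and 12.3% lower. Csf2rb, the shared beta chain of the receptors for interleukin-3, interleukin-5 and GM-CSF, had 105 and 81.6 CPM against 20.3 and 21.3 CPM, a log2 difference of 2.26 (SE 0.21, edgeR adjusted p = 1.2e-07). Il3ra, the alpha chain for interleukin-3, had 82.2 and 57.7 CPM against 33.2 and 33.99 CPM. Both chains of the interleukin-3 receptor were thus higher. Cd63, a tetraspanin of granule membranes, had 834 and 721 CPM against 231 and 222 CPM, and Cd48, absent from most stem cells, had 472 and 395 CPM against 99.6 and 133 CPM. Of 8 endothelial genes, 5 were tested and Egfl7 and Pecam1 were higher, with Egfl7, which stem cells also express, at 595 and 603 CPM against 179 and 218 CPM.

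Cell cycle genes were lower throughout. Of 15 genes, all 15 were tested and all 15 were lower in the RUNX1::RUNX1T1 group, against 12.3% of all genes tested, with a median log2 difference of -2.33. Pcna lost its call with DESeq2's Wald test and without Control pool 2. Pcna and Stmn1 lost theirs when either RUNX1::RUNX1T1 pool was left out. The list summed to 576 and 714 CPM against 2077 and 1986 CPM. Mki67, a marker of dividing cells, had 16.7 and 44.9 CPM against 197 and 148 CPM, a log2 difference of -2.33 (SE 0.26, edgeR adjusted p = 9.5e-07). Thinned, the shares of cells with a Mki67 UMI were 2.26% and 3.29% against 21.1% and 13.8%, and as counted 7.57% and 9.38% against 34.2% and 27.6%, with 2.20% to 7.75% in contig barcodes. Genes of DNA synthesis were lower with genes of mitosis, with Mcm5, a subunit of the replicative helicase, at 27.1 and 27.4 CPM against 181 and 141 CPM and Tyms, thymidylate synthase, at 19.7 and 20.4 CPM against 113 and 120 CPM.

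**Figure D5:**
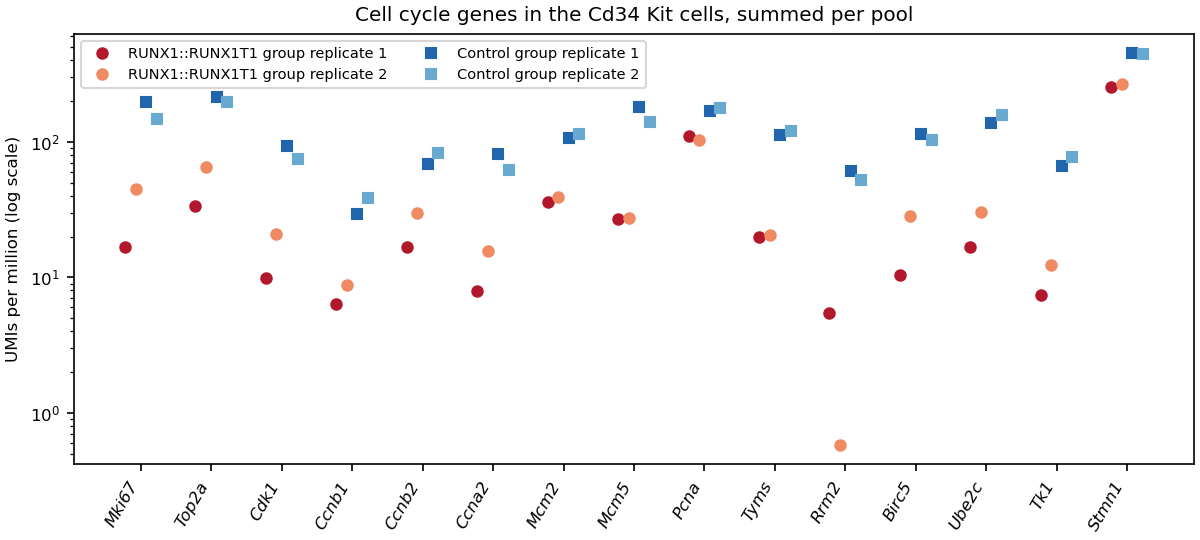
Levels of the 15 cell cycle genes in Cd34 Kit cells summed per pool, in CPM on a log axis, with 1 point for each pool. Both Control pools lie above both RUNX1::RUNX1T1 pools for every gene, and summed the genes stand at 576 and 714 CPM in the RUNX1::RUNX1T1 pools and at 2077 and 1986 CPM in the Control pools.

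Of the RUNX1::RUNX1T1 members, 27.6% and 35% held a UMI of Mki67 or Top2a as counted, against 50% and 49.3% of the deeper Control members. Contig barcodes held Top2a in 6.103% to 15.7%, and a cell with such a UMI need not be dividing. In contig barcodes the order of the groups was the other way, with the list at 369 and 437 CPM in the RUNX1::RUNX1T1 pools and 221 and 286 CPM in the Control pools.

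Of 15 interferon-stimulated genes, 13 were tested. Of these, 0 were higher and 2 were lower (Ifi27l2a and Rtp4), against 11.8% and 12.3% of all genes tested. The list summed to 405 and 622 CPM against 446 and 725 CPM, so the pools overlapped. Rtp4 had 29.5 and 44.9 CPM against 29.5 and 89.9 CPM, and without Control pool 2 its log2 difference was 0.51 in place of -0.85. That of Ifi27l2a was -0.30 without Control pool 2 in place of -2.09 (edgeR adjusted p = 0.80).

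A list of 20 immediate early and stress genes, written after values had been seen, moved with the groups. It summed to 33778 and 44682 CPM in the RUNX1::RUNX1T1 members and to 16158 and 18087 CPM in the Control members, and to between 13034 and 14176 CPM in contig barcodes of all pools. Its part in the differences above was not tested.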

How the data were processed

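The authors sequenced sorted marrow T cells and made the deposited UMI counts with Cell Ranger 6.1.2 on GRCm38, and the annotation release is not given in the sources used here. The deposited count matrices were neither normalized nor filtered for mitochondrial UMIs or doublets. The contig tables were used to mark T cells. Members and gene lists were chosen with earlier results of these data known. UMI counts of members were summed per pool and tested with edgeR 4.0.16 (R 4.3.3; quasi-likelihood test, TMM, filterByExpr, Benjamini-Hochberg adjustment at 0.05), which left out 22261 of 32285 genes. The test was tested on simulated data first. Shares were compared by exact permutation over pools, each pool being 1 sample. Pools held the marrow of 2 mice each, and nothing pairs the pools of the groups. CPM is relative to all UMIs of the members of a pool. Doublets were scored with Scrublet (scanpy 1.11.5, expected rate 0.05) and none were removed. Genes named were the defining markers, the leading genes of each list by UMIs, the 10 highest and 10 lowest by fold and the most alike to Cpa3 and Adgrg1, and others were added after their values were seen. A few genes that these rules choose are not reported here. Alternatives were other size factors, DESeq2 1.42.0, no filter, a replicate block, each pool left out and 4 other rules for cells.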

Additional observations from a re-analysis of the deposited data

How the results depend on the processing

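The number of genes called was 2419 with edgeR and 1104 with DESeq2's Wald test, of which 1103 were among the 2419, and it ran from 1579 (without RUNX1::RUNX1T1 pool 1) to 3130 (without Control pool 1) when a pool was left out. No gene called by edgeR and by an alternative fit differed in sign. Of 106 named genes followed, 17 lost their call with DESeq2, among them Mpo, Ly6a, Mcpt8, Fgd5, Erg, Itga2b and Pcna. Calr, Cd47, Erg, Gata3, Pcna and Stmn1 lost theirs when either RUNX1::RUNX1T1 pool was left out. With the replicate number as a block, 2375 genes were called, of which 2226 were shared. The labels share only a number, and same-numbered pools deviated together with r = 0.13 for both numbers, which 2 pools in a group make equal. Leaving out a pool moved the differences in share of cells to between 87.7 and 90.4 points for Cpa3, 12.8 and 16.8 for Runx1t1, -8.09 and -4.87 for Adgrg1 and 25.4 and 29.4 for Mpo. The share of barcodes that were Cd34 Kit cells ran from -0.841 to 0.943 points, and was -0.00724 points with at least 2 UMIs of Cd34 and of Kit. The difference of Adgrg1 was 0.901 points with 500 genes or more and mitochondrial UMIs of 5% or less. Signs also turned for Ctsg (log2 difference from -0.10 without RUNX1::RUNX1T1 pool 1 to 1.16 without Control pool 1), Dntt (-0.026 without Control pool 1 to 0.87 without Control pool 2) and Rtp4 (-1.19 without Control pool 1 to 0.51 without Control pool 2). The causes were not tested. Control pool 1 gave 38 cells, which limits every value that rests on it.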
